A study of Mus musculus with 8 samples.

Results

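Growth hormone reaches the liver through its receptor and sets the output of the circulating hormone Igf1, and 10 genes of this route were followed in mice that lack hepatic pyruvate carboxylase. They are the receptor and its relays (Ghr, Jak2, Stat5a and Stat5b), the secreted products (Igf1 and Igfals), the feedback inhibitors (Socs2, Cish and Socs3) and the repressor Bcl6. The 10 symbols, like the further gene lists below, were chosen with earlier results of these data known. Each of the 10 matched 1 of the 35275 Ensembl rows of the count table. All 10 were among the 13168 genes with enough reads to be tested. RNA was sequenced from the livers of 4 Pcx L-/- and 4 control mice, 1 library per mouse, all C57BL/6 males of 9 weeks on chow that had fasted for 24 h. Pcx L-/- mice carry Pcx with a floxed exon 10 together with Albumin-Cre, so recombination is driven in hepatocytes and the other cells of the liver keep the gene. The controls are littermates with the floxed gene and are labelled WT; the paper calls them Pcx f/f.

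Growth hormone binds a dimer of its receptor, the receptor-bound kinase JAK2 phosphorylates the complex, and STAT5 proteins dock there, are phosphorylated in turn and enter the nucleus as dimers. In hepatocytes they switch on Igf1 and Igfals, whose proteins travel in blood as part of 1 complex, and they also switch on Socs2 and Cish, which dampen the same receptor. Fasting is a classic state of hepatic growth hormone resistance, and in rodents the pulsed male pattern of the hormone also maintains sex differences in liver gene expression.

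STAT5 dimers recognise the palindrome TTCNNNGAA, so windows around the start sites of the 10 genes were searched for it. The windows, from RefSeq on GRCm38.p6, run from 250 bases before to 50 bases after each start, and a palindrome reads alike on both strands. Of 15 windows for 9 of the genes, 6 windows of 4 genes held it, against 2726 of all 32851 windows (8.3%). The matches and their surroundings are shown because these 4 genes include both feedback and product genes; each line runs 5′ to 3′ on the gene's strand, and capitals mark TTCNNNGAA.
Cish, chr9:107296654-107296683, plus strand: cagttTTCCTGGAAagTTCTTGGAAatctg
Igfals, upstream start, chr17:24877598-24877626, plus strand: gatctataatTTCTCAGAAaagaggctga
Igfals, middle start, chr17:24878163-24878191, plus strand: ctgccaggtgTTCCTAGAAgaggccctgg
Socs3, chr11:117969502-117969530, minus strand: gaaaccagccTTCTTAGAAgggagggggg
Bcl6, outer start, chr16:23988952-23988980, minus strand: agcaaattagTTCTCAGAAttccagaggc
Bcl6, inner start, chr16:23981284-23981533, minus strand: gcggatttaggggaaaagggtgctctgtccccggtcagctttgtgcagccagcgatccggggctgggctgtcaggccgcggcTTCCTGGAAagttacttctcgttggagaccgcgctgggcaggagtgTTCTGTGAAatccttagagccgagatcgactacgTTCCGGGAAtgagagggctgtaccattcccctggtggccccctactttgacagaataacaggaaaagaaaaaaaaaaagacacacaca

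In Cish the 2 matches began at positions 1 and 12 counted from the start site. The matches of Igfals began at -236 of the upstream and -58 of the middle of its 3 listed starts, and that of Socs3 at -154. Bcl6 had 1 match at -118 of its outer start and 3 at -168, -122 and -88 of an inner start. The 250 bases before this inner start lie inside a transcript of Bcl6 and overlap none of its exons. In the Cish, Igfals and Socs3 windows with matches, these bases lie inside a transcript of the gene and overlap its exons. Windows of Ghr, Jak2, Stat5a, Stat5b and Igf1 held none, which says only that these letters were not in these windows, and Socs2 is only named here. A match is a stretch of sequence and was not tested as a binding site.

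Libraries held between 12016242 and 20023108 reads on genes. Pcx, whose normalized count checks the labels, was between 14371 and 22059 in control and between 556 and 758 in Pcx L-/- liver. Mice carry numbers in the 500s (control replicates 1 and 2, Pcx L-/- replicate 1) or the 800s (all others), so among Pcx L-/- mice replicate 1 and its number series cannot be told apart. This library stood apart: summed FPKM (reads scaled to gene length and library total) of 5 red blood cell markers was 5338 in it and between 317 and 1412 in the other 7. Among all genes tested it was the Pcx L-/- library nearest to the control mean for 46.5%, and among all altered genes for 74.8%. Fold changes and calls of the 10 genes are therefore given with and without it.

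Normalized counts below are read counts divided by the effective library size (TMM factors) and scaled to a common size, and a gene was called altered where edgeR (quasi-likelihood F test on counts, p adjusted over all genes tested by the Benjamini-Hochberg method) gave an adjusted p under 0.05. Standard errors (SE) of log2 fold changes are approximate, and a negative fold change means lower in Pcx L-/- liver. By this rule 3 of the 10 genes fell in Pcx L-/- liver (Ghr, Igf1 and Igfals) and 1 rose (Stat5a), where 27.6% of all genes tested were altered (13.5% lower and 14.1% higher). Without Pcx L-/- replicate 1, 7 of the 10 were altered, against 34.5% of all genes. Ghr, Igf1, Igfals, Socs2 and Cish were then lower, and Stat5a and Bcl6 higher. Within the 800s mice 5 of the 10 were altered (29.8% of all genes), and 4 of the 10 both with scaling by library size only (36.3%) and by DESeq2's Wald test (27.4%). The 4 values of the genotypes did not overlap for 1 of the 10 genes, Ghr, against 27.6% of all genes tested, and for 6 of 10 without replicate 1, against 41.4%. The median log2 fold change of the 10 was -0.31, beside -0.01 for all genes tested. It was -0.51 without replicate 1, and -0.06 with scaling by library size only, where all genes had a median of 0.28.

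**Figure D1:**
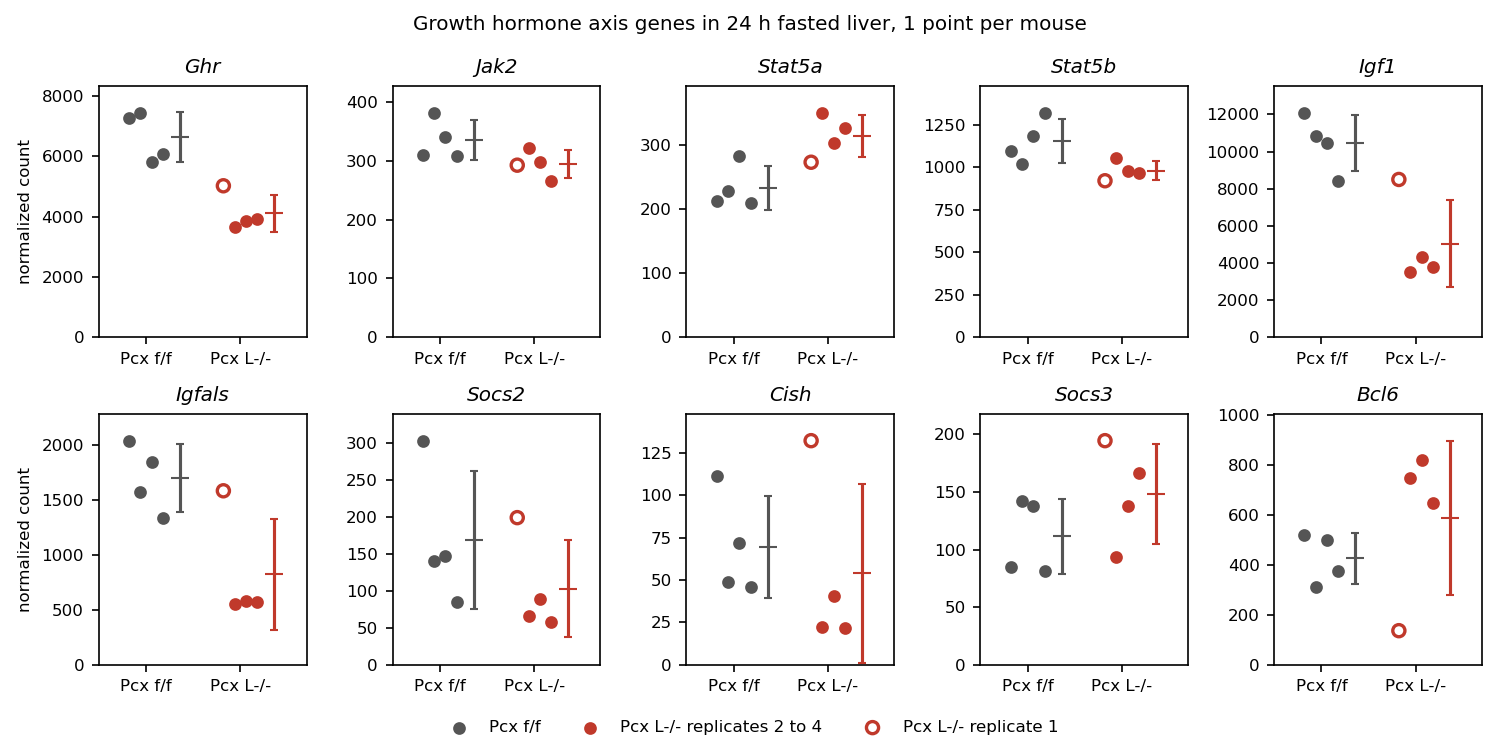
Normalized counts (vertical axes, each from 0) of the 10 genes in 24 h fasted liver, 1 point per mouse, for control (Pcx f/f) and Pcx L-/- mice; bars give the mean and SD of 4 mice, and the open circle is Pcx L-/- replicate 1. For Igf1, Igfals, Socs2 and Cish the open circle lies within or above the control points while the other 3 Pcx L-/- mice lie low, and for Bcl6 it is the lowest of all 8 points at 137.

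Ghr encodes the growth hormone receptor (ENSMUSG00000055737, chr15:3317760-3583492 of GRCm38, minus strand). Its normalized counts were 7273, 7438, 5817 and 6067 in the controls and 5021, 3656, 3852 and 3907 in Pcx L-/- replicates 1 to 4. All 4 Pcx L-/- mice lay below all 4 controls, with replicate 1 the closest to them. The mean was 6649 ± 825 (SD, n = 4) in control and 4109 ± 617 (SD, n = 4) in Pcx L-/- liver, 61.8% of control. The log2 fold change was -0.69 (SE 0.14, adjusted p = 0.0059, edgeR). Without replicate 1 it was -0.81 (adjusted p = 0.000578, edgeR), and among the 800s mice, 2 controls and 3 Pcx L-/-, it was -0.64 (adjusted p = 0.0033, edgeR). Ghr was altered under all 19 alternative settings, with log2 fold changes between -0.81 and -0.41.

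Jak2, the kinase bound to the receptor (ENSMUSG00000024789, chr19:29251828-29313080, plus strand), held 310, 381, 341 and 309 normalized counts in the controls. In Pcx L-/- mice it held 293, 322, 299 and 265. The ranges overlapped, and the difference was within the spread between mice, with a log2 fold change of -0.19 (SE 0.11, adjusted p = 0.247, edgeR). Leaving out replicate 1 gave -0.18 (adjusted p = 0.286, edgeR). The sign is not settled, since scaling by library size only gave 0.10; that scaling put the median of all genes at 0.28 in place of -0.01 (log2).

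Stat5a and Stat5b encode the 2 forms of STAT5, of which Stat5b is the main one in liver. Stat5b (ENSMUSG00000020919, chr11:100780731-100850724, minus strand) held 1096, 1017, 1183 and 1320 normalized counts in the controls and 921, 1056, 979 and 965 in the Pcx L-/- mice. Only Pcx L-/- replicate 2 reached into the control range. Its log2 fold change of -0.23 (SE 0.11, adjusted p = 0.128, edgeR) did not pass the threshold, was -0.21 without replicate 1, and turned to 0.06 with scaling by library size only.

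Stat5a (ENSMUSG00000004043, chr11:100859351-100885169, plus strand) went the other way, with 213, 228, 283 and 209 normalized counts in the controls and 273, 350, 303 and 326 in Pcx L-/- mice. The ranges overlapped by 1 mouse of each genotype, control replicate 3 and Pcx L-/- replicate 1. Means were 233 ± 34.1 (SD, n = 4) in control and 313 ± 32.9 (SD, n = 4) in Pcx L-/- liver, a log2 fold change of 0.42 (SE 0.13, adjusted p = 0.0337, edgeR). Without replicate 1 it was 0.48 (adjusted p = 0.0168, edgeR), and in the 800s mice 0.40 (adjusted p = 0.1002, edgeR). The call was lost in 9 of 19 alternatives, with adjusted p up to 0.105 (edgeR): without control replicates 1, 2 or 4, without Pcx L-/- replicates 2, 3 or 4, within the 800s mice, with number series as a term, and with replicate number as a block. Stat5a overlaps Stat3 on the opposite strand and lies 8627 bases from its near-copy Stat5b, and the sources used here do not state whether reads were counted by strand, so its reads are uncertain.

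Igf1 encodes the growth factor that the liver secretes into blood (ENSMUSG00000020053, chr10:87858265-87937042, plus strand). Its normalized counts were 12079, 10830, 10450 and 8416 in controls and 8494, 3529, 4333 and 3785 in Pcx L-/- replicates 1 to 4. Replicate 1 lay just above the lowest control, and the other 3 Pcx L-/- mice lay far below every control. The mean fell from 10444 ± 1520 (SD, n = 4) to 5036 ± 2330 (SD, n = 4), 48.2% of control, and to 37.2% without replicate 1. The log2 fold change was -1.05 (SE 0.26, adjusted p = 0.0133, edgeR), and without replicate 1 it was -1.43 (SE 0.15, adjusted p = 4.76e-05, edgeR). Among the 800s mice it was -1.28 (adjusted p = 0.000211, edgeR), and Igf1 was altered under all 19 alternatives, with adjusted p up to 0.0492. Igf1os, an antisense gene over the same region, held 207 reads in all.

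Igfals encodes the acid-labile subunit that holds Igf1 in its large circulating complex (ENSMUSG00000046070, chr17:24865997-24882010, plus strand). The controls held 2036, 1566, 1846 and 1331 normalized counts, and the Pcx L-/- mice 1581, 552, 583 and 573. Replicate 1 sat inside the control range, and the other 3 lay together at less than any control. The mean was 1694 ± 310 (SD, n = 4) in control and 822 ± 506 (SD, n = 4) in Pcx L-/- liver. This gave a log2 fold change of -1.05 (SE 0.32, adjusted p = 0.0314, edgeR), and -1.58 (SE 0.15, adjusted p = 3.07e-05, edgeR) without replicate 1. In the 800s mice it was -1.48 (adjusted p = 0.000104, edgeR). With replicate 1 kept, the call was lost without any single one of control replicates 1 and 3 and Pcx L-/- replicates 2, 3 and 4 (adjusted p from 0.0744 to 0.0968, edgeR).

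Igf1, Igfals and Ghr are transcribed mainly in hepatocytes, and hepatocyte markers were also lower. Of 6 listed markers, 5 had a symbol that matched a row (Alb, Ttr, Apoa1, Apob and Cps1). The symbol Tf matched none, and this gene was not searched under another symbol. Summed FPKM over the 5 was between 43181 and 47328 in controls and between 30754 and 39119 in Pcx L-/- liver. Of the 5, 2 were altered, both lower, where 27.6% of all genes were altered. Without replicate 1 all 5 were lower, where 34.5% of all genes were altered. None of the 5 was at 0. Over all 8 mice the summed markers of other cells overlapped between the genotypes, with summed FPKM of 98.1 to 148 against 123 to 199 for 8 macrophage, 67.8 to 81.3 against 65.6 to 89.5 for 6 endothelial and 71.9 to 156 against 70.3 to 158 for 7 stellate cell markers. For 5 cholangiocyte markers the sums were 9.17 to 19.6 against 10.6 to 15.1, and for 8 lymphocyte markers 2.83 to 6.59 against 4.28 to 6.78. No marker was at 0 in all 8 libraries. Without replicate 1 the Pcx L-/- sums were 166 to 199 for macrophage and 87.6 to 89.5 for endothelial markers, above every control. These sums carry no TMM factor. By edgeR with TMM factors and without replicate 1, 1 of the 8 macrophage and 0 of the 6 endothelial markers were altered (34.5% of all genes). Their median log2 fold changes were 0.09 and -0.07. In the 800s mice 4 of the 8 macrophage markers were higher, where 29.8% of all genes were altered. With all mice 1 of the 8 was higher, where 27.6% of all genes were altered. With number series as a term 0 were, where 26.8% of all genes were altered. The part of the hepatocyte, macrophage and endothelial markers in the fall of Igf1, Igfals and Ghr was not tested, and in whole liver fewer cells of a type and less RNA per cell cannot be told apart.

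**Figure D2:**
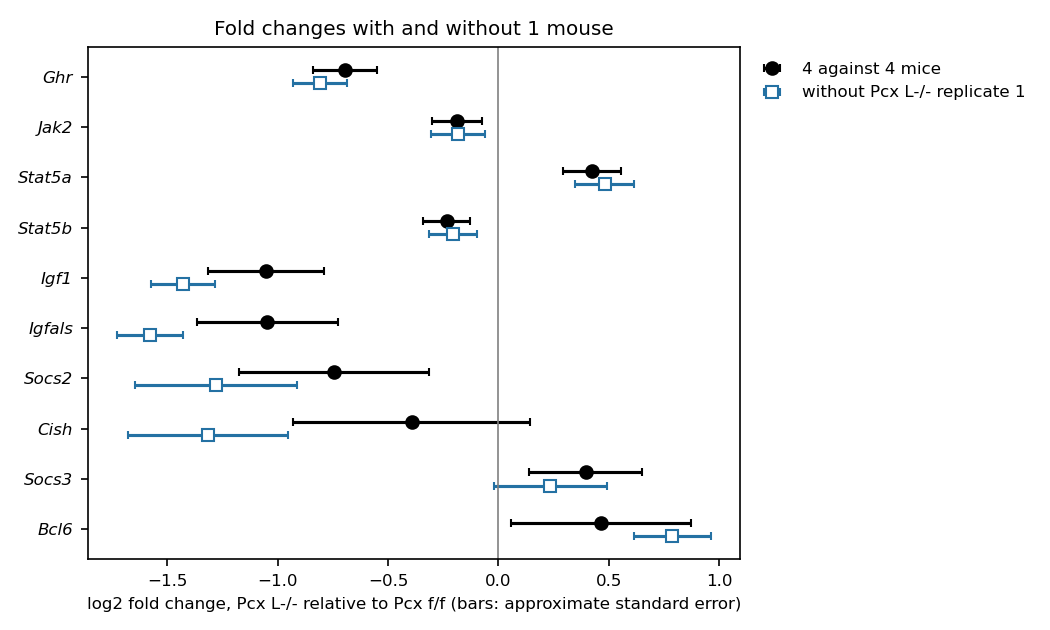
Log2 fold change of Pcx L-/- relative to control liver (horizontal axis) for the 10 genes, with all 8 mice (black circles) and without Pcx L-/- replicate 1 (blue squares); bars are approximate standard errors. Ghr, Jak2, Stat5a, Stat5b and Socs3 differ little between the fits, whereas Igfals goes from -1.05 to -1.58 and Cish from -0.39 to -1.32.

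The feedback inhibitors are induced by the signal they dampen and served as a second readout. Socs2, the suppressor most tied to growth hormone (ENSMUSG00000020027, chr10:95385362-95417180, minus strand), held 303, 141, 147 and 84.9 normalized counts in controls and 199, 65.6, 88.7 and 57.6 in Pcx L-/- mice. The controls alone spread widely, from 84.9 to 303, and replicate 1 again stood above the other Pcx L-/- mice. The log2 fold change of -0.74 (SE 0.43, adjusted p = 0.227, edgeR) did not pass the threshold. Without replicate 1 Socs2 fell by 1.28 on the log2 scale (SE 0.37, adjusted p = 0.0197, edgeR), while in the 800s mice the value was -0.73 (adjusted p = 0.0763, edgeR). Without control replicate 1, the highest control, it was -0.30 (adjusted p = 0.643, edgeR).

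Cish, a second inhibitor that binds the activated receptor (ENSMUSG00000032578, chr9:107296026-107302784, plus strand), was the least abundant of the 10. Its normalized counts were 111, 48.8, 72.0 and 45.8 in controls and 132, 22.1, 40.4 and 21.8 in Pcx L-/- mice. Replicate 1 had the highest count of all 8 mice, and the other 3 Pcx L-/- mice lay below every control. With all mice the log2 fold change was -0.39 (SE 0.54, adjusted p = 0.632, edgeR). Without replicate 1 it was -1.32 (SE 0.36, adjusted p = 0.0166, edgeR), and within the 800s mice -1.08 (adjusted p = 0.0461, edgeR). Without control replicate 1 it was -0.061 (adjusted p = 0.953, edgeR). Gm17040 and Gm17041 overlap Cish on the opposite strand and held 11 and 0 reads.

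Socs3, which answers mainly to cytokines such as IL-6 (ENSMUSG00000053113, chr11:117966079-117970047, minus strand), held 84.7, 142, 138 and 81.5 normalized counts in controls. The Pcx L-/- mice held 194, 93.1, 138 and 167. These ranges overlapped widely, and the log2 fold change was 0.40 (SE 0.26, adjusted p = 0.28, edgeR), or 0.23 without replicate 1 (adjusted p = 0.523, edgeR). Here replicate 1 was the highest Pcx L-/- mouse, as for Socs2 and Cish.

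Bcl6 encodes a repressor that shares sites with STAT5 in liver and is itself held down by growth hormone (ENSMUSG00000022508, chr16:23965052-23988852, minus strand). Its normalized counts were 518, 310, 501 and 373 in controls and 137, 746, 820 and 647 in Pcx L-/- mice. Replicate 1 was below every control, and the other 3 were above every control. The 8-mouse log2 fold change was 0.46 (SE 0.41, adjusted p = 0.432, edgeR), and with number series as a term it was 0.03. Without replicate 1 Bcl6 rose, with a log2 fold change of 0.79 (SE 0.17, adjusted p = 0.00527, edgeR). Within the 800s mice it was 0.75 (adjusted p = 0.00755, edgeR), and without Pcx L-/- replicate 3 it was 0.26 (adjusted p = 0.716, edgeR). The cause of the position of replicate 1 was not tested.

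Levels of different genes were compared per length, as deposited FPKM, which carry no TMM factor. In controls Ghr had the highest level at 85.3 ± 13.9 and Igf1 the next at 79.5 ± 15.1 (SD, n = 4), and their ranges overlapped. Igfals followed at 43.1 ± 9.44, then Stat5b at 11.8 ± 0.745 and Bcl6 at 5.79 ± 1.48 (SD, n = 4), each apart from its neighbors in the order. Below them came Jak2 (3.57), Stat5a (3.15), Socs3 (2.35), Socs2 (2.16) and Cish (0.796), each overlapping the next in range. In Pcx L-/- liver the order of the mean levels was the same except that Stat5a, at 5.18 ± 0.901, stood above Jak2, at 3.82 ± 0.486 (SD, n = 4). The mean level of Igf1 there was 45.2 ± 16.0 and that of Ghr 63.5 ± 3.64 (SD, n = 4), with Igf1 at 68.7 in replicate 1 and 34.3 to 41.8 in the other 3 mice.

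The genes whose pattern over the 8 mice was most like that of Igf1 were Car5a, Haao, Pipox, Zfp467 and Shmt1. Likeness was the root mean square difference of log2 normalized counts relative to library size, each centred on its mean over the 8 libraries, among 13167 other genes. It was 0.0790 for Car5a (a mitochondrial carbonic anhydrase), 0.0923 for Haao (an enzyme of tryptophan breakdown), 0.103 for Pipox (a peroxisomal oxidase) and Zfp467 (a zinc finger protein), and 0.106 for Shmt1 (a serine hydroxymethyltransferase). These genes share with Igf1 a high replicate 1 among the Pcx L-/- mice, and all values come from the same libraries. Of the other 9 genes of the route, Igfals ranked 21st at 0.143 and Ghr 522nd at 0.337, while Bcl6 was among the least alike at rank 12683. Igfals was thus nearer to Igf1 than Ghr was, although Ghr has the smaller adjusted p.

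**Figure D3:**
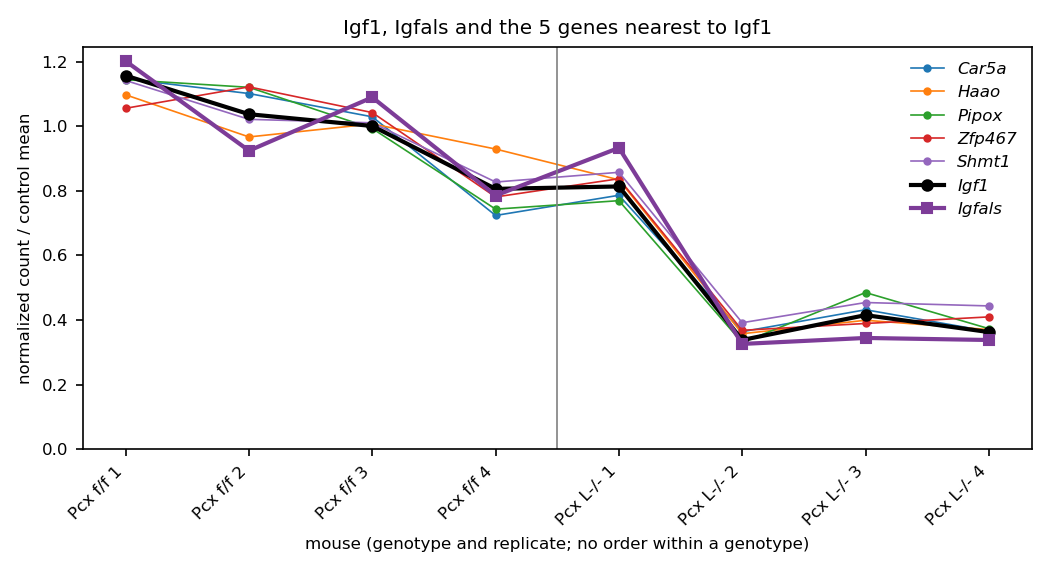
Normalized count divided by the control mean (vertical axis) in each mouse (horizontal axis) for Igf1 (black), Igfals (purple) and the 5 genes nearest to Igf1; lines join the values of 1 gene and imply no order among mice. All 7 genes are higher in Pcx L-/- replicate 1 than in the other 3 Pcx L-/- mice, where Igf1 has 3529 to 4333 normalized counts. Replicate 1 lies within the control range for all but Haao, which has 4331 normalized counts there against 4827 to 5699 in controls.

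The other proteins that act on this receptor and its kinase (28 partners and attenuators, such as phosphatases, adaptors and further SOCS genes) were all tested, and 7 were altered, or 25%, with 5 lower and 2 higher, a share close to the 27.6% of all genes tested. Their median log2 fold change was -0.08. The directions depended on the scaling: by library size only 1 was lower and 5 higher (21.4%), with a median of 0.21. Of all 13168 genes tested, 870 were then lower and 3915 higher (36.3%), with a median of 0.28. Prlr, the prolactin receptor and a close relative of Ghr, held 1440, 1494, 1395 and 1371 normalized counts in controls and 1197, 692, 876 and 696 in Pcx L-/- mice. All Pcx L-/- mice were below all controls, and Prlr fell by 0.72 on the log2 scale (SE 0.16, adjusted p = 0.00911, edgeR). Rnf7, a part of the ubiquitin ligase that SOCS proteins recruit, had the reverse pattern without overlap and a log2 fold change of 0.50 (SE 0.09, adjusted p = 0.00382, edgeR).

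Of the same list, the kinase gene Src had a log2 fold change of 0.87 (SE 0.27, adjusted p = 0.0345, edgeR), lost without any single library but control replicate 2 or Pcx L-/- replicate 1 (adjusted p up to 0.115, edgeR). The 4 others of the list that fell were Socs7 (-0.54), Sos1 (-0.45), Pias1 (-0.36) and Socs4 (-0.34). Socs1, a strong inhibitor of JAK kinases, had -0.80 (adjusted p = 0.105) and the insulin receptor substrate Irs2 -0.75 (adjusted p = 0.182), neither past the threshold in edgeR. Irs2 was at -0.12 without control replicate 4 and at -1.16 (adjusted p = 0.0387, edgeR) within the 800s mice. The adaptor Shc1 had 0.18 (adjusted p = 0.191, edgeR). Without control replicate 3 the list held 4 altered genes, and without Pcx L-/- replicates 2, 3 or 4 it held 2, 3 and 3, where 19.5%, 17.3%, 18.6% and 15.7% of all genes were altered.

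Downstream of Igf1 lies the IGF system of binding proteins, receptors and proteases. Of 15 listed genes 12 were tested and 1 was altered, where 27.6% of all genes tested were. This was the insulin receptor Insr, with 3892 ± 882 (SD, n = 4) normalized counts in control and 2694 ± 311 (SD, n = 4) in Pcx L-/- liver. Insr had a log2 fold change of -0.53 (SE 0.16, adjusted p = 0.031, edgeR) and was altered under 11 of 19 alternatives. Its call was lost without control replicate 1 and without Pcx L-/- replicate 2, 3 or 4 (1 at a time). Scaling by library size only, limma at either pseudocount and replicate number as a block also lost the call of Insr. The list held 2 altered genes without control replicate 2, control replicate 4 or Pcx L-/- replicate 1. The shares of all genes altered in these fits were 23.9%, 27.2% and 34.5%. Within the 800s mice 3 of the 12 were altered, against 29.8% of all genes. The median log2 fold change was -0.21.

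Igfbp1, a binding protein that rises with fasting, had the highest value of the IGF list at 0.98, yet its adjusted p was 0.16 (edgeR). Its normalized counts were 3224, 1178, 2701 and 8613 in controls and 4107, 9032, 9583 and 8273 in Pcx L-/- mice. Control replicate 4 lay among the Pcx L-/- mice, and replicate 1 was the lowest of those. Igfbp1 passed the threshold without control replicate 4 (adjusted p = 0.00992, edgeR), with scaling by library size only (adjusted p = 0.0355, edgeR) and with limma at either pseudocount (adjusted p = 0.0331 and 0.0328). The log2 fold changes of Igfbp6 (0.47) and Igf2r (0.15) and of Pappa2 (-0.999), Igf2 (-0.95) and Igfbp5 (-0.75) did not pass the threshold either. Without control replicate 1, Pappa2 was at -0.099 and Igf2 at -0.051. Pappa, Stc1 and Stc2 had too few reads to be tested.

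**Figure D4:**
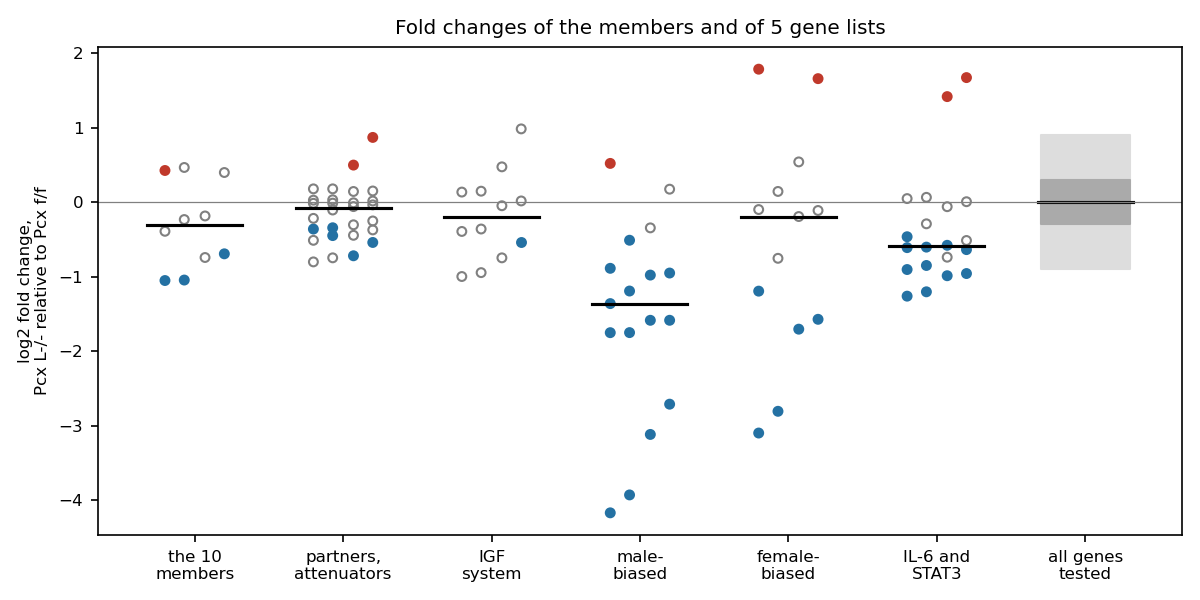
Log2 fold change of Pcx L-/- relative to control liver (vertical axis) for the 10 genes and 5 lists, 1 point per gene; filled points passed the threshold (blue lower, red higher), open points did not, and black lines are list medians. The right bar spans the 5th to 95th (light) and 25th to 75th (dark) percentiles of all genes tested, from -0.90 to 0.91 and from -0.30 to 0.29, and the male-biased list has a median of -1.36.

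In male mice growth hormone pulses, acting through Stat5b, keep a set of male-biased liver genes high and female-biased genes low, so both sets were read. Of 19 male-biased genes 17 were tested and 15 were altered, with 14 lower and 1 higher, where 13.5% of all genes tested were lower. Their median log2 fold change was -1.36, and in 11 of the 17 every Pcx L-/- mouse lay below every control, where the genotypes did not overlap, in either direction, for 27.6% of all genes. Replicate 1 was the Pcx L-/- mouse nearest to the control mean for 11 of the 17 (64.7%), beside 46.5% of all genes tested and 74.8% of all altered genes. The number altered without 1 library was between 12 and 16, where 15.7% to 34.5% of all genes were altered.

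The lowest male-biased genes were Mup7 (-4.17, SE 0.85, adjusted p = 0.00542) and Mup1 (-3.12, SE 0.44, adjusted p = 0.0011, both edgeR), which encode major urinary proteins, and Selenbp2 (-3.93, SE 0.57, adjusted p = 0.0012, edgeR). Mup7 held 15847, 4521, 8385 and 6856 normalized counts in controls and 1422, 306, 42.8 and 213 in Pcx L-/- mice. Mup genes are near-identical copies, so their reads may be split between them and single values are uncertain. Selenbp2, a selenium-binding protein gene, held 1362, 299, 435 and 372 in controls against 76.4, 38.9, 13.2 and 36.7 in Pcx L-/- mice. In both genes the Pcx L-/- mice lay below every control, replicate 1 included.

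At the other end of the male-biased list, Nudt7, a peroxisomal hydrolase gene, rose by 0.52 (SE 0.15, adjusted p = 0.0258, edgeR), a call lost on leaving out control replicate 2, control replicate 3 or either of Pcx L-/- replicates 2 and 4 (adjusted p up to 0.0788, edgeR). The fatty acid elongase gene Elovl3 had 0.17 (adjusted p = 0.69) and the hydroxylase gene Cyp4a12b -0.35 (adjusted p = 0.406), neither past edgeR's threshold. Ugt2b38 and Moxd1 were not tested for lack of reads.

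**Figure D5:**
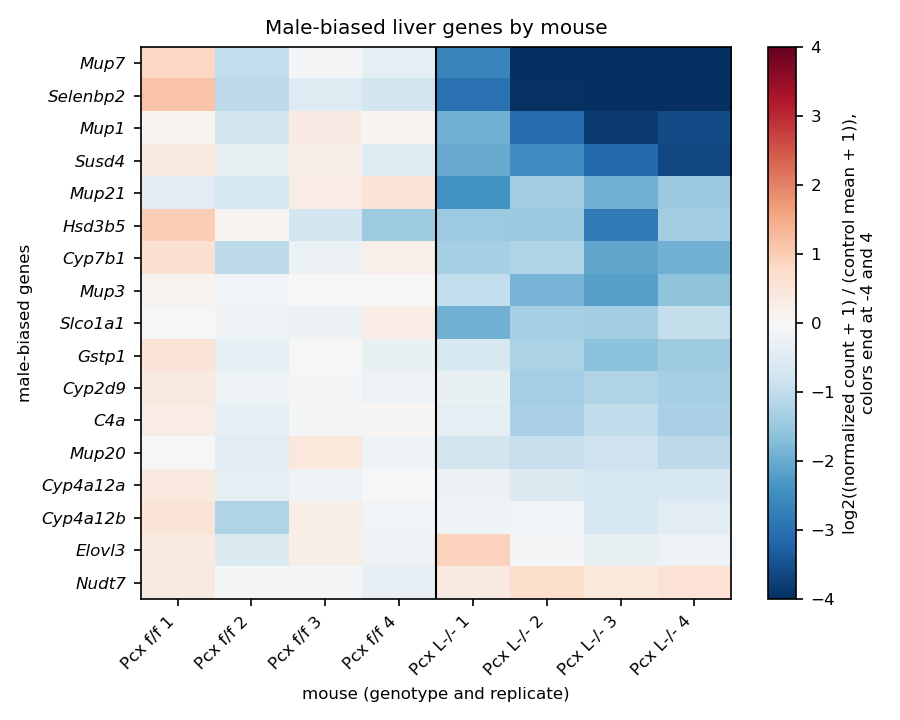
Heat map of the 17 tested male-biased liver genes (rows) in the 8 mice (columns); color is log2 of normalized count plus 1 over the control mean plus 1, blue lower and red higher, ending at -4 and 4. By the test 14 genes fell in Pcx L-/- liver and 1, Nudt7, rose.

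Female-biased genes did not move as 1 group. Of 22 listed, 13 were tested and 7 altered, with 5 lower and 2 higher, where 13.5% of all genes tested were lower and 14.1% higher. Their median log2 fold change was -0.19. The other 9 had too few reads in these male livers. Cux2, a transcription factor that marks female liver, fell by 2.81 (SE 0.52, adjusted p = 0.00364, edgeR), and Fmo2, a flavin monooxygenase gene, by 1.71 (SE 0.34, adjusted p = 0.00504, edgeR). Cux2 ranged from 125 to 397 normalized counts in controls, and Pcx L-/- replicate 1 was the highest of its genotype at 75.5. Both genes lay lower in every Pcx L-/- mouse than in any control.

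The 3 highest log2 fold changes of the female-biased list were those of Cyp2b10, Cyp2a4 and Cyp2b9, all cytochrome P450 genes. Cyp2b10, which is also a target of the xenobiotic receptor CAR, held 231, 115, 369 and 852 normalized counts in controls and 717, 1467, 1621 and 1487 in Pcx L-/- mice. Only control replicate 4 reached above the lowest Pcx L-/- mouse, and the log2 fold change was 1.78 (SE 0.48, adjusted p = 0.0195, edgeR), lost on leaving out control replicate 1, control replicate 3 or either of Pcx L-/- replicates 3 and 4 (adjusted p up to 0.0592, edgeR). Cyp2a4 rose by 1.66 (SE 0.36, adjusted p = 0.00769, edgeR), a call lost within the 800s mice (adjusted p = 0.0588, edgeR). Cyp2b9 had 0.54 (adjusted p = 0.592, edgeR), and -0.36 without Pcx L-/- replicate 3. Both families hold near-identical copies, so reads may be shared.

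Because Socs3 and Stat3 belong to the IL-6 route, which shares JAK kinases with growth hormone, 20 genes of that route and its acute-phase targets were read. All were tested and 13 were altered, with 11 lower and 2 higher, against 27.6% of all genes (13.5% lower and 14.1% higher). The median log2 fold change was -0.59. Il6ra, the IL-6 receptor, held 1664, 1444, 1988 and 2305 normalized counts in controls and 879, 859, 1072 and 917 in Pcx L-/- mice. No Pcx L-/- mouse reached a control, and Il6ra fell by 0.99 (SE 0.15, adjusted p = 0.00136, edgeR). Serpina3n, a secreted protease inhibitor, had -1.26 (SE 0.21, adjusted p = 0.00234, edgeR), and the acute-phase gene Saa2 -1.20 (SE 0.33, adjusted p = 0.0192, edgeR). The call of Saa2 was lost without control replicate 1 or Pcx L-/- replicate 2, 3 or 4 (adjusted p up to 0.0597, edgeR).

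The 2 genes of the IL-6 list that rose were Lcn2, an iron-siderophore binding protein (1.67, SE 0.38, adjusted p = 0.00873, edgeR), and Junb, an immediate early transcription factor (1.42, SE 0.24, adjusted p = 0.00223, edgeR). Both lay higher in every Pcx L-/- mouse than in any control. Orm2, an acid glycoprotein gene, had 0.06 (adjusted p = 0.927, edgeR) and turned to -0.64 (adjusted p = 0.0223, edgeR) without replicate 1, which held 175 normalized counts against 46.7 to 51.9 in the other Pcx L-/- mice. The list held 8 altered genes without each of Pcx L-/- replicates 2, 3 and 4, where 15.7% to 18.6% of all genes were altered, and 17 without replicate 1, where 34.5% were. With limma on FPKM 7 of the 20 were altered (35%) at either pseudocount, near the 35.3% and 34.9% of all genes.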

How the data were processed

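Total RNA from 8 livers (4 Pcx L-/-, 4 control) was sequenced by a company, 1 library per mouse. Per the labels and the paper's methods, the authors aligned reads to mm10. Read counts for each Ensembl gene were deposited as raw whole numbers. The submitters' processing notes name STAR 2.5, HTSeq 0.6.1 and DESeq2 without their roles, and the sources used here state neither the annotation release nor the use of strand. The FPKM values that the authors also deposited equal the count divided by 1 length per gene and by the library total, within a relative tolerance of 1e-06.

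Groups came from the sample labels. GENCODE M21 gave symbols to 34490 of 35275 rows (97.8%). Counts were tested with edgeR 4.0.16 in R 4.3.3 (quasi-likelihood F test, genotype only, 6 residual degrees of freedom). Genes were kept by filterByExpr with minimum count 10 and total 15. Benjamini-Hochberg adjustment ran over 13168 genes, and the fit was checked on simulated data. TMM factors were 0.833 to 0.942 in control and 0.970 to 1.16 in Pcx L-/- libraries, without overlap between the genotypes. Standard errors are the log2 fold change over the square root of F. DESeq2 1.42.0 (the paper's test), apeglm 1.24.0, limma 3.58.1 on log2(FPKM + 1) or log2(FPKM + 0.1), other scalings and filters, number series, replicate block and each library left out made 19 alternatives.

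The 10 genes and the lists, written from general knowledge, were chosen with earlier results of these data known. Named beside the 10 genes are Pcx, the 3 highest and 3 lowest tested genes of each list, and the 5 genes nearest to Igf1; 1 gene of the female-biased list is not reported here by name. Insr, Socs7, Sos1, Pias1 and Socs4 fall outside this rule and were named after their values were seen.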

Additional observations from a re-analysis of the deposited data

Results flagged for a closer look

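Each group of 4 mice was checked for a mouse whose gap to its nearest neighbor took up most of the group's range (Dixon's criterion at 95%), for the 10 genes in both genotypes. Of 20 groups 3 passed, and in all 3 the mouse was Pcx L-/- replicate 1. Chance gives about 1 in 20 only for independent groups. These groups come from the same 8 mice, and Igf1 and Igfals have similar patterns, so the 3 are not separate events. Its normalized count was 8494 for Igf1 against 3529 to 4333 in the other Pcx L-/- mice, with a gap of 0.838 of the range. For Igfals it was 1581 against 552 to 583, with a gap of 0.9695. For Cish it was 132 against 21.8 to 40.4, with a gap of 0.831. The same mouse had the most red blood cell transcripts, and it is the only Pcx L-/- mouse numbered in the 500s; the part of either was not tested.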

How the results depend on the processing

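Of 190 values for the 10 genes under 19 alternatives, 164 kept direction and side of the threshold, 14 lost the call, 6 gained it and 6 turned sign. The 6 are Jak2 and Stat5b, at 0.10 and 0.062 with library size only, 0.078 and 0.050 with limma on log2(FPKM + 1), and 0.10 and 0.053 with a pseudocount of 0.1; neither was called in any. Leaving out 1 library gave 2 to 7 altered among the 10 genes, 2109 to 4602 among all genes, 2 to 9 partners and attenuators, 0 to 2 of the IGF system and 8 to 17 of the IL-6 list. Within the 800s mice 12 partners and 3 IGF genes were altered (29.8% of all genes), and DESeq2 with or without apeglm gave 2 IGF genes (27.4%). Limma gave 7 of the 20 genes of the IL-6 list (35%) with either pseudocount, where 35.3% and 34.9% of all genes were altered. Under limma the share of the IL-6 list was thus near that of all genes. Of the list genes named by rule, those that turned sign were Pappa2 (0.46), Igf2 (0.12), Igf2r (-0.067), Elovl3 (-0.24) and Orm2 (-0.49) in the 800s mice, and Cyp4a12b (0.045 and 0.050) with limma. With 1 library left out, Igf2r ranged from -0.0057 (without control replicate 2) to 0.36, Igfbp6 from -0.21 to 1.44 and Cyp2b9 from -0.36 to 1.24 (both lowest without Pcx L-/- replicate 3), and Elovl3 from -0.20 to 0.31 and Orm2 from -0.64 to 0.26 (both lowest without Pcx L-/- replicate 1). The cause was not tested.

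Replicate numbers are shared by the genotypes but did not pair the mice, since same-numbered mice had correlations of their deviations of 0.0957, -0.127, -0.0936 and -0.0676. With the replicate number as a block, 4 of the 10 genes and 0 of the 12 tested IGF genes were altered, against 22.6% of all genes. Among the 10, the call of Socs2 was gained (adjusted p = 0.0138, edgeR) and that of Stat5a lost (adjusted p = 0.0577, edgeR). Orm2 was at -0.14 with this block. Depth limits precision where reads are few, as for Cish with 22 to 140 reads per library.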
